A study of Mus musculus with 2 samples.

Results

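The Kruppel-like factor (KLF) genes Klf2, Klf3, Klf4, Klf6, Klf7, Klf9, Klf10, Klf13 and Klf15 were described in accessible chromatin of the mouse lung. These 9 genes, members of the family other than Klf5, were taken by symbol from the 21938 protein-coding genes of the GENCODE mouse annotation (build mm10, GRCm38), and all 9 were found. Chromatin was mapped by DNase-seq, in which nuclei are digested with DNase I and the cut ends are sequenced, so that sites cut often (peaks) mark accessible DNA and short protected stretches inside them (footprints) mark bases shielded from the enzyme. The tissue was labelled as lung tissue of B6CASTF1/J mice, first-generation hybrids of C57BL/6J and CAST/EiJ, all male and 14 days old, with no treatment named in the labels. Replicate 1 carries the label of a male with no pool named, and replicate 2 that of a pool of 3 males. Both libraries carry 1 donor record, so whether they are independent animals is not known and the spread between them may be technical. They form 1 group, so nothing was tested between conditions, and each value is given per library beside the same measure over all protein-coding genes.

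KLF proteins bind GC-rich and CACCC-type DNA through zinc fingers at their carboxyl end, while their amino ends recruit different partners. Klf2, Klf4, Klf6 and Klf7 belong to the branch that works with acetyltransferases such as the products of Ep300 and Kat2b, Klf3 to the branch that binds CtBP repressors, and Klf9, Klf10 and Klf13 to the branch that binds SIN3A. Klf15 stands outside these branches. In the lung the family is best known from the endothelium, where blood flow induces Klf2 and Klf4, and from genes that answer glucocorticoids, Klf9 and Klf15 among them.

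The smaller of the 2 peak lists of each library held 94786 peaks in replicate 1 and 77403 in replicate 2, with 326313 and 252174 footprints. Read depth is unknown. Peaks were ranked by the authors' signal value only against peaks of the same list, and a percentile is the share of peaks in that list with an equal or lower value. A promoter peak lies within 1 kb of any annotated transcript 5′ end of the gene, and a gene with one is called open below. A distal peak is any other peak between 50 kb before and 50 kb after the gene, the gene body included. Of the marker genes used to check the tissue label, the endothelial (4 of 4), mesenchymal (4 of 4) and ciliated (2 of 2) ones were open in both libraries, as were 3 of 4 alveolar type 2 and 3 of 4 alveolar type 1 markers. For smooth muscle, replicate 1 had all 3 markers open and replicate 2 had 2 of them, and 1 of 4 immune markers was open in each library. None of 2 club cell markers and none of 7 markers of other organs was open. These counts stand beside the 63.6% of all protein-coding genes open in both libraries by the same rule. With so few markers per cell type they are a coarse check, and no list was tested. In tissue of mixed cells, a site that is open in few cells cannot be told apart from a site that is weakly open in many.

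All 9 genes were open in both libraries. By the same rule 66.6% of all protein-coding genes were open in replicate 1, 64.1% in replicate 2 and 63.6% in both. In each of the 9 genes the highest-ranked promoter peak reached percentile 90 or above in both libraries, against 33.1% of all genes in replicate 1 and 31.5% in replicate 2. The median of that percentile over the 9 genes was 96.34 in replicate 1 and 97.76 in replicate 2, beside medians of 89.87 over the 14611 open genes of replicate 1 and 89.73 over the 14072 of replicate 2. Ordered by the mean of both libraries, the genes ran from Klf2 (99.20 ± 0.03, SD, n = 2 libraries) and Klf6 (99.05 ± 0.41) through Klf10 (98.23 ± 0.56), Klf7 (97.05 ± 1.88), Klf13 (97.05 ± 1.00), Klf9 (95.42 ± 0.07), Klf3 (95.29 ± 0.69) and Klf4 (94.57 ± 2.78) to Klf15 (92.20 ± 0.48). Neighbours in this order whose library values overlapped were Klf2 and Klf6, Klf10 and Klf7, Klf7 and Klf13, Klf9 and Klf3, and Klf3 and Klf4. The library values of Klf6 and Klf10, of Klf13 and Klf9, and of Klf4 and Klf15 did not overlap, by narrow margins.

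**Figure D1:**
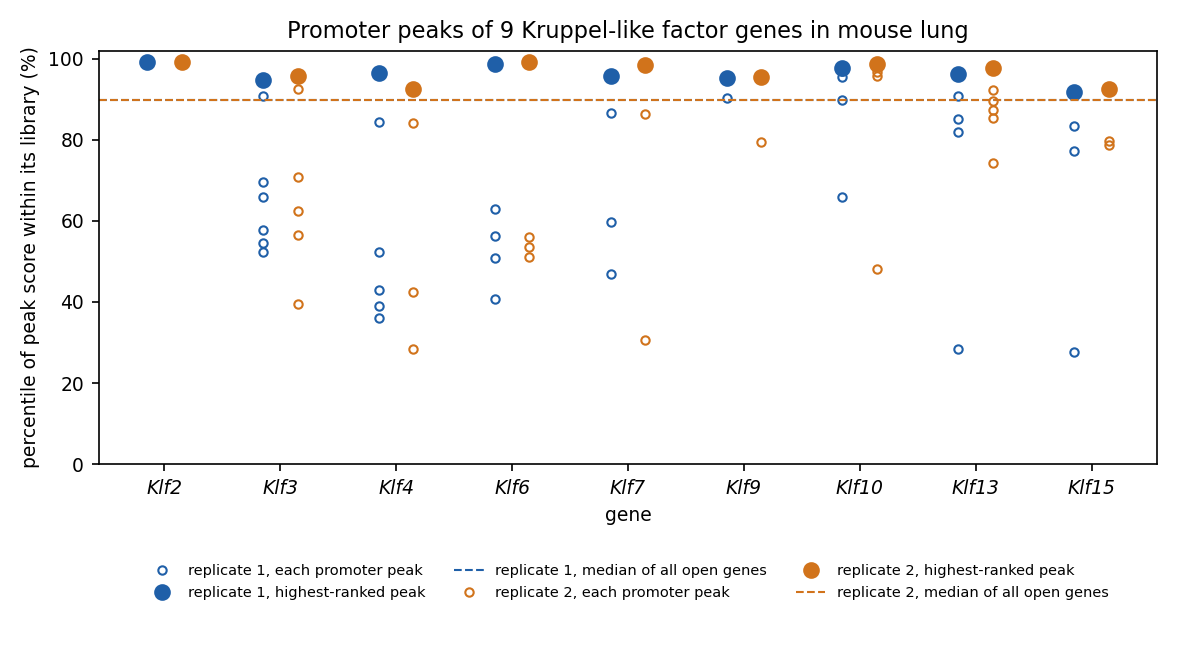
Percentile of every promoter peak (open circles) and of the highest-ranked one (filled circles) for each of the 9 genes, with replicate 1 in blue and replicate 2 in orange; dashed lines are the medians over all open genes, 89.87 and 89.73. All filled circles lie above the dashed lines, and the lower promoter peaks of most genes lie below them.

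The genes also carried many promoter peaks. Replicate 1 held 40 and replicate 2 held 33, and 7 of 9 genes had 3 or more in each library (all but Klf2 and Klf9), against 20.4% of all genes in replicate 1 and 14.8% in replicate 2. Klf3 had 8 and 6, the most in replicate 1 and as many as Klf13 in replicate 2, and Klf2 had the fewest, with 1 in each. The genes had a median of 3 distinct transcript 5′ ends, as did all protein-coding genes. Klf3, with the most peaks in replicate 1, had 9 such ends, while Klf2 and Klf9 had 1 and 2, and the part of the number of ends in the peak counts was not tested. Merged over the libraries the peaks formed 39 regions, of which 30 were found in both libraries, 7 in replicate 1 alone and 2 in replicate 2 alone. Of the last 2, the Klf13 region at percentile 92.41 overlaps a replicate 1 peak at 92.59. That peak lies just beyond the 1 kb limit and was counted as distal. The site thus had a peak in both libraries but is in neither count of shared regions. The regions found in 1 library were mostly weak, with a median percentile of 46.9, and in 7 of these 9 the other library had cleavage at an FDR (false discovery rate) of 0.05 or below on at least 1 base. The 1 kb around the outermost 5′ end of each gene was rich in CpG: the ratio of observed to expected CpG ran from 0.71 (Klf2) to 1.03 (Klf9), against a median of 0.55 over all genes, and 33.1% of all genes reached the value of Klf2 or more. GC content ran from 59.0% (Klf6) to 75.7% (Klf3), against 54.7%.

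Klf2, which maintains the quiescent endothelium, is a short gene with a single transcript (chr8:72319033-72321656, plus strand). Its 1 promoter peak, chr8:72318821-72319120, ranked 738 of the 94786 peaks of replicate 1 (percentile 99.22) and 638 of the 77403 of replicate 2 (99.18), and was centred at -62 bp from the 5′ end. It held 5 footprints in replicate 1 and 6 in replicate 2. The exon-free part of this peak is printed because it is the highest-ranked promoter of the 9 genes. Here and in the other sequences, read 5′ to 3′ on the strand of the gene from the C57BL/6J reference, capitals mark footprints found in both libraries (the overlap covers at least 50% of the shorter one).
Klf2 promoter, chr8:72318821-72319032, plus strand: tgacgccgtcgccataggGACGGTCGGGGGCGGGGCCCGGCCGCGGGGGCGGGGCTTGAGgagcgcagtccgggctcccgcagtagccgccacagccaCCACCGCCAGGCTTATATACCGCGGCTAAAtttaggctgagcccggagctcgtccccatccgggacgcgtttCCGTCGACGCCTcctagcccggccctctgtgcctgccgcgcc
The first footprint, 42 bp long, holds 2 GC boxes (GGGCGG), the core of the sequence that KLF and SP proteins bind. The second, 30 bp long, runs into a MEF2 consensus, the sequence recognised by the MEF2 factors through which blood flow induces Klf2 and Klf4.

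Klf6, an early response gene to tissue injury, lies at chr13:5861482-5870394 (plus strand). Its main promoter peak stood at percentile 98.76 in replicate 1 and 99.33 in replicate 2, with 4 and 8 footprints. The other promoter peaks of the gene were far lower, between 40.80 and 63.04 in replicate 1 and between 51.16 and 56.02 in replicate 2. Klf7, known chiefly for its role in axon growth and in adipocytes, lies at chr1:64029447-64122282 (minus strand). Its main promoter peak, at 95.72 and 98.38, was not at the outermost 5′ end but 511 bp inside the gene, in an intron, at -280 bp from the start of the transcript Klf7-202. The peak over the outermost 5′ end stood at 86.52 and 86.43. These main peaks are also among the 6 with the highest mean percentile, by which the printed promoters were chosen, and their sequences can be read beside that of Klf2.
Klf6 promoter, chr13:5861141-5861440, plus strand: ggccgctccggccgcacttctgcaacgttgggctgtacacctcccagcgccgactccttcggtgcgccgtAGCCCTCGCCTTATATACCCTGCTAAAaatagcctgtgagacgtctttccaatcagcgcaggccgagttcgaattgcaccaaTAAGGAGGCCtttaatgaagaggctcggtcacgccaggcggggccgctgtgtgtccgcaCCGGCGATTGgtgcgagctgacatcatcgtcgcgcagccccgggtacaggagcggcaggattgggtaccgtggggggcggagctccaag
Klf7 promoter, chr1:64121621-64121920, minus strand: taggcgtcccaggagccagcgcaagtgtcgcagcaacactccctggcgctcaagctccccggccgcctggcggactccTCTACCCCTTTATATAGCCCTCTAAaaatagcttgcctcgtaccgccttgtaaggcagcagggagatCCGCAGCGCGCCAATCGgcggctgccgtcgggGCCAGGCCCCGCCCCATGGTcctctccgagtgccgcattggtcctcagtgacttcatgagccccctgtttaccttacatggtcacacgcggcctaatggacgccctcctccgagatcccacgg
The Klf6 stretch holds 1 GC box, outside the shared footprints, and 4 CCAAT boxes, the site of the factor NF-Y. In the Klf7 stretch the single GC box and 1 of 2 CCAAT boxes lie within shared footprints.

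The MEF2 consensus was found in the promoters of Klf2, Klf6 and Klf7. It was present in the 200 bp around the centre of the highest-ranked promoter peak in 3 of 9 genes in each library. Over all such windows it was present in 65 of 13284 (0.49%) in replicate 1 and in 58 of 12750 (0.45%) in replicate 2. The centre of the motif lay at -84 bp from the start of Klf2-201, at -244 bp from that of Klf6-201 and at -326 bp from that of Klf7-202. The 60 bases around each match are set side by side here, with the consensus in capitals.
Klf2 element, chr8:72318919-72318978, plus strand: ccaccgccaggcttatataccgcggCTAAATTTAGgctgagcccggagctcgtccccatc
Klf6 element, chr13:5861208-5861267, plus strand: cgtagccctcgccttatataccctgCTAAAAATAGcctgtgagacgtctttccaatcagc
Klf7 element, chr1:64121787-64121846, minus strand: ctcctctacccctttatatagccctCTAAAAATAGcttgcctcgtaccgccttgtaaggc
The consensus is the same in Klf6 and Klf7. In each gene a footprint found in both libraries covered the bases on the 5′ side and the first bases of the consensus: 30 bp with 5 of its bases in Klf2, 27 bp with 5 in Klf6 and 25 bp with 4 in Klf7. No promoter peak of Klf4, the other flow-responsive member, held the consensus anywhere along its length, which says only that these letters are not in those peaks.

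Klf4, a factor of endothelial and epithelial differentiation, lies at chr4:55527143-55532466 (minus strand). Its highest-ranked promoter peak, chr4:55532441-55532680, stood at 96.53 in replicate 1 and 92.61 in replicate 2, the widest gap between the libraries among the 9 genes, and held 7 and 5 footprints. A second peak at -535 bp stood at 84.53 and 84.27. Its promoter peaks inside the gene body were low, at most 52.23 in replicate 1 and 42.44 in replicate 2. In replicate 1, 1 of them overlaps 2 others of the list, so 1 footprint of the gene was counted in 2 peaks and the overlapping bases were counted in both lengths.

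Klf3, a repressor that recruits CtBP and acts in adipocytes and B cells, lies at chr5:64803388-64832901 (plus strand) and was open at separate starts. The peak at the outermost 5′ end stood at 94.73 and 95.78 and lay in an exon of the adjoining noncoding gene Gm20033, so it cannot be assigned to Klf3 alone. A peak 8893 bp further into the gene, at -58 bp from the start of Klf3-202, stood at 94.80 and 92.46. The libraries differ in which of these starts ranked higher: the inner one by a small margin in replicate 1, the outer one in replicate 2.

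Klf9, Klf10 and Klf13 belong to the SIN3A-binding branch. Klf9, a glucocorticoid- and thyroid hormone-induced gene, lies at chr19:23141226-23168134 (plus strand), with its main peak at 95.36 and 95.47. A second peak, over a coding exon, stood at 90.41 in replicate 1 and 79.51 in replicate 2. Klf10, induced early by TGF-beta, lies at chr15:38291463-38300706 (minus strand) and had a pair of adjoining peaks at the outermost 5′ end, at 97.83 and 98.62 for the first and 95.45 and 95.65 for the second. A further region inside the gene, at -199 bp from the start of Klf10-202, stood at 96.99 and 96.86 and held 12 footprints in replicate 1 and 15 in replicate 2, more than any other promoter region of the 9 genes. Klf13, known for its part in T cells and in the heart, lies at chr7:63886351-63938915 (minus strand), with its main peak at 96.34 and 97.76. Its inner starts were open too: the peak at Klf13-203 stood at 90.80 and 89.60, and that at Klf13-202 at 85.11 and 85.47. The 3 main promoter peaks complete the 6 with the highest mean percentile, and their sequences show where the GC boxes and CCAAT boxes lie relative to the footprints.
Klf10 promoter, chr15:38300707-38300920, minus strand: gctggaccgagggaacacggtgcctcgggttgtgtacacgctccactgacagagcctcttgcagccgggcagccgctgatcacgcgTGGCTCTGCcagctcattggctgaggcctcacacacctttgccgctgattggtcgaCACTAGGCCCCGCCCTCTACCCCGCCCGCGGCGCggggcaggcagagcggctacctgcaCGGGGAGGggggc
Klf13 promoter, chr7:63938916-63939215, minus strand: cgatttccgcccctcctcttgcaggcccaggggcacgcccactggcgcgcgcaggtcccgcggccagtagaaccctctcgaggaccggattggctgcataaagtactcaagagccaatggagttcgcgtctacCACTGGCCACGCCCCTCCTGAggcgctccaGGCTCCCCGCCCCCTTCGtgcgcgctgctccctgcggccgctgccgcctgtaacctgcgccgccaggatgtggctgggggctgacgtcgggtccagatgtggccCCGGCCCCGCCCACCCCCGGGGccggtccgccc
Klf9 promoter, chr19:23140874-23141173, plus strand: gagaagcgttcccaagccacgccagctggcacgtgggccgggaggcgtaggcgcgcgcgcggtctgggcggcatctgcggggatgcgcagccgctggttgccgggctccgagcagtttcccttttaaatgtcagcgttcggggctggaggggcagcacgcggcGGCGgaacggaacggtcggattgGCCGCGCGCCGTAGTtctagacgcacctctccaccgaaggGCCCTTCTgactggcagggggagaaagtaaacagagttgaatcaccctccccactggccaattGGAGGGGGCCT
In the Klf10 stretch both GC boxes lie in 1 footprint, and 2 CCAAT boxes lie outside the footprints. The Klf13 stretch holds 4 GC boxes and 1 CACCC box (CCACCC), of which 3 lie wholly within shared footprints, and 2 CCAAT boxes. The Klf9 stretch holds 1 GC box, outside the footprints, and 3 CCAAT boxes.

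Klf15, a regulator of amino acid and lipid metabolism, lies at chr6:90462576-90475238 (plus strand) and had the lowest-ranked main promoter peak. That peak, at 91.86 and 92.54 with 5 footprints in each library, lay in an intron, 977 bp after the start of Klf15-203, just inside the 1 kb limit. The peak at the outermost 5′ end stood at 83.46 and 79.66, and that at Klf15-204 at 77.14 and 78.65.

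Motifs were searched on both strands in the 200 bp around the centre of the highest-ranked promoter peak of each gene, and overlapping matches of different motifs were each counted. For Klf3 that peak lies at a different start in each library, so its windows are different sites. The GC box was present in 6 of 9 genes in replicate 1 and 8 of 9 in replicate 2, against 61.44% and 62.28% of all windows. The CCAAT box was present in 7 and 6 of 9, against 30.94% and 32.00%, and the CACCC box in 3 and 3 of 9, against 27.61% and 27.36%. The ETS site CCGGAAG was found in 0 of 9 in either library, against 14.45% and 15.11%. The CRE TGACGTCA and the SMAD palindrome GTCTAGAC were found in 0 of 9, as were the glucocorticoid receptor palindrome and the SRF CArG box, all of which were present in 3.47% of all windows or fewer. The AP-1 site TGANTCA was found in 1 and 0 of 9, the E-box CACGTG in 1 and 2, and the TATA sequence TATAAA in 1 and 1. A match is a description of the letters, and 9 genes are too few to rank these shares.

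**Figure D2:**
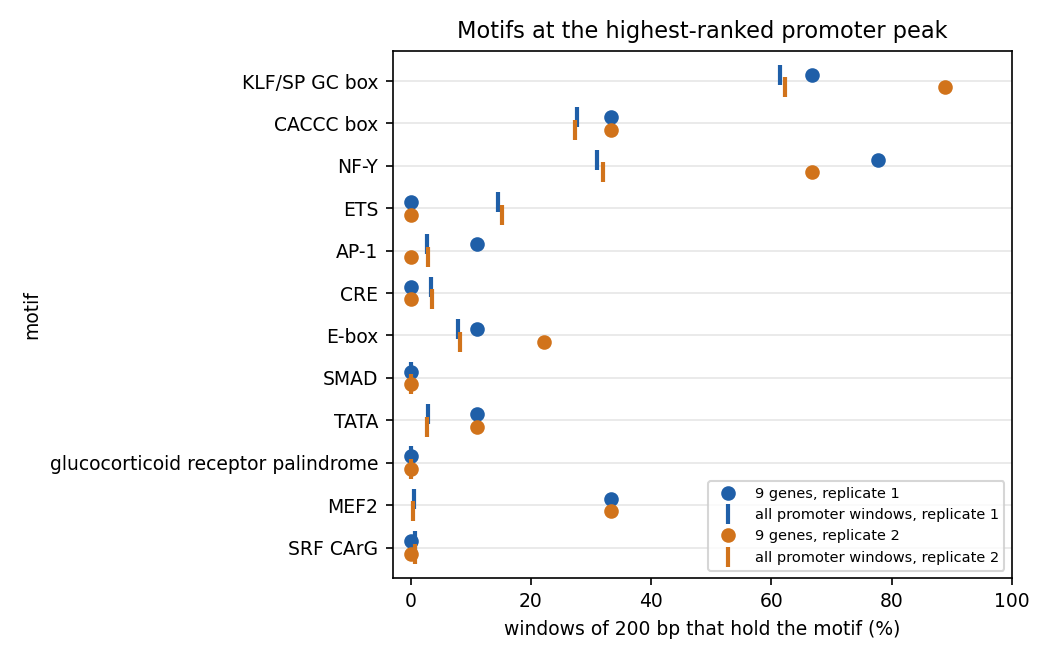
Share of the 9 genes (circles) and of all promoter windows (vertical ticks) that hold each motif within 200 bp centred on the highest-ranked promoter peak, in percent, by library. The circles for MEF2 (33.3%) and NF-Y (77.8% and 66.7%) lie to the right of the ticks in both libraries, and those for ETS (0.0%) to the left. Circles for the GC box, CACCC box, E-box and TATA also lie to the right in both libraries. Those for CRE, SMAD, the glucocorticoid receptor palindrome and SRF lie to the left, at 0.0%, and those for AP-1 differ in side between the libraries.

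Promoter footprints numbered 116 in replicate 1 and 119 in replicate 2. Over the summed length of the promoter peaks this was 11.7 and 13.5 per kb, close to the 12.6 and 13.4 per kb of all open genes together. The genes differed among themselves: Klf10 held 23 and 22 footprints, Klf13 18 and 25, Klf15 15 and 11, Klf3 14 and 15, Klf4 12 and 9, Klf9 11 and 15, Klf6 11 and 10, Klf7 7 and 6 and Klf2 5 and 6. Per kb, Klf9 was the densest in replicate 1 (25.0) and Klf2 in replicate 2 (21.4). Klf3 stood at 7.6 and 8.9, the latter the lowest value of replicate 2. A whole GC box lay inside 18 of 115 distinct footprints (15.7%) in replicate 1 and 28 of 119 (23.5%) in replicate 2, against 12.7% and 15.0% of the footprints in the promoter peaks of all genes. A whole CACCC box lay inside 5 (4.3%) and 7 (5.9%), against 2.4% and 2.7%. The footprints of the 9 genes were slightly longer, with medians of 13.0 and 14.0 bp against 12.0 and 13.0 bp, and a longer footprint has more room for a motif.

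**Figure D3:**
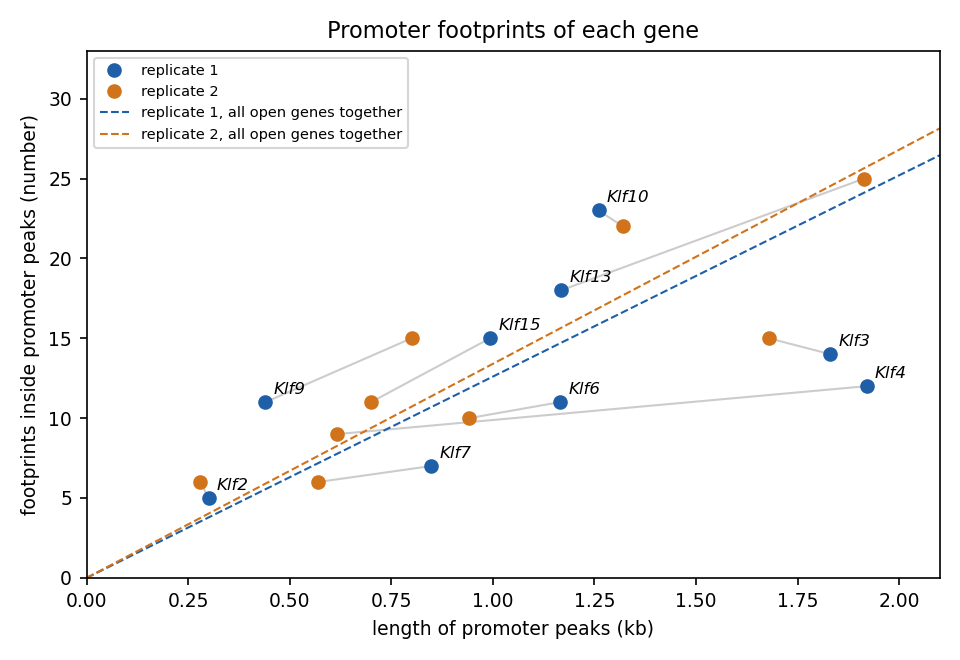
Footprints inside the promoter peaks of each gene (number) against the summed length of those peaks (kb), with grey lines joining the libraries of a gene; dashed lines are all open genes together, 12.6 and 13.4 per kb. Klf2, Klf9, Klf10 and Klf15 lie above the lines in both libraries and Klf3, Klf6 and Klf7 below them.

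Beyond the promoters, each of the 9 genes had at least 1 distal peak found in both libraries, as did 84.5% of all genes. The windows held 104 distal peaks in replicate 1 and 93 in replicate 2, which formed 114 regions, 83 of them in both libraries. The Klf13 site on the 1 kb limit, described above, is not among these 83. The number shared by both libraries was 16 for Klf15, 13 for Klf3, 11 for Klf13, 10 for Klf7, 10 for Klf10, 8 for Klf2, 6 for Klf9, 5 for Klf6 and 4 for Klf4, and the median over all genes was 5. Per 100 kb of window, the genes together had 7.28 shared distal peaks and all genes together 4.25. Klf15 had the densest surroundings, with 14.20 per 100 kb, at or above 96.5% of all genes, and Klf4 the sparsest, with 3.80, at or above 49.6%. The count depended on the library for Klf6 (10 in replicate 1 and 5 in replicate 2) and Klf4 (7 and 4), and it grows with the flank chosen: the sum was 44 with flanks of 20 kb and 134 with flanks of 100 kb. Of the 83 shared sites, 39 lay in introns, 38 between genes, 4 in exons without coding sequence and 2 in coding exons, and 10 lay within 1 kb of a 5′ end of another gene. The window assigns a site by position alone, so its target was not tested.

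**Figure D4:**
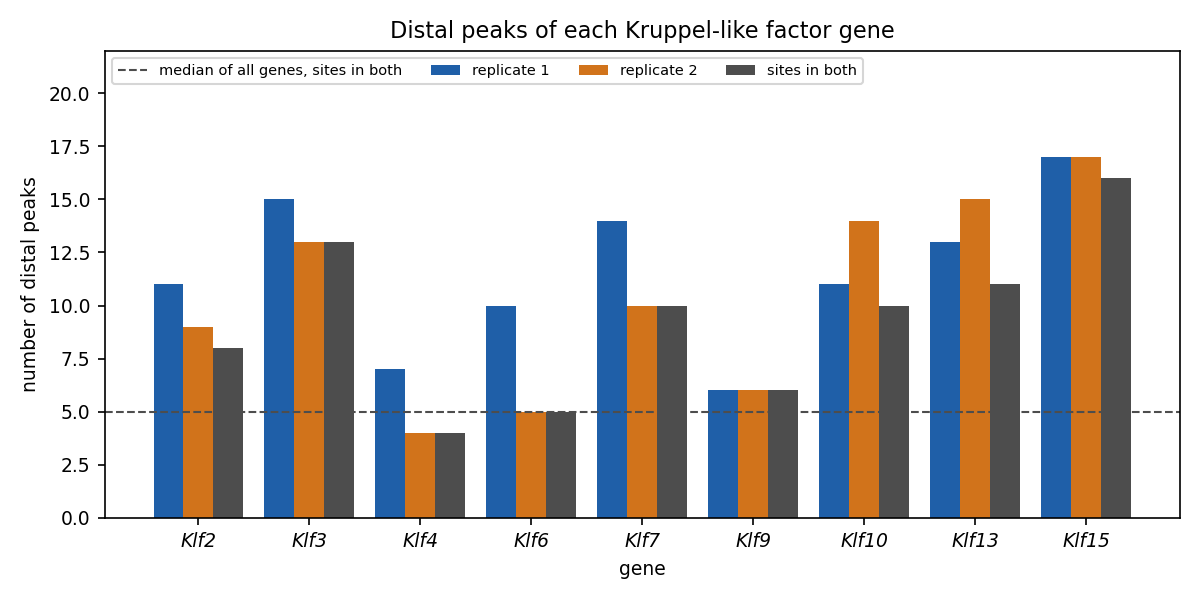
Number of distal peaks from 50 kb before to 50 kb after each gene in replicate 1, in replicate 2 and shared by both; the dashed line is the median of shared sites over all genes, 5. Klf4 is the only gene whose shared bar lies under the line, Klf6 is level with it, and Klf15 has the tallest bars.

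**Figure D5:**
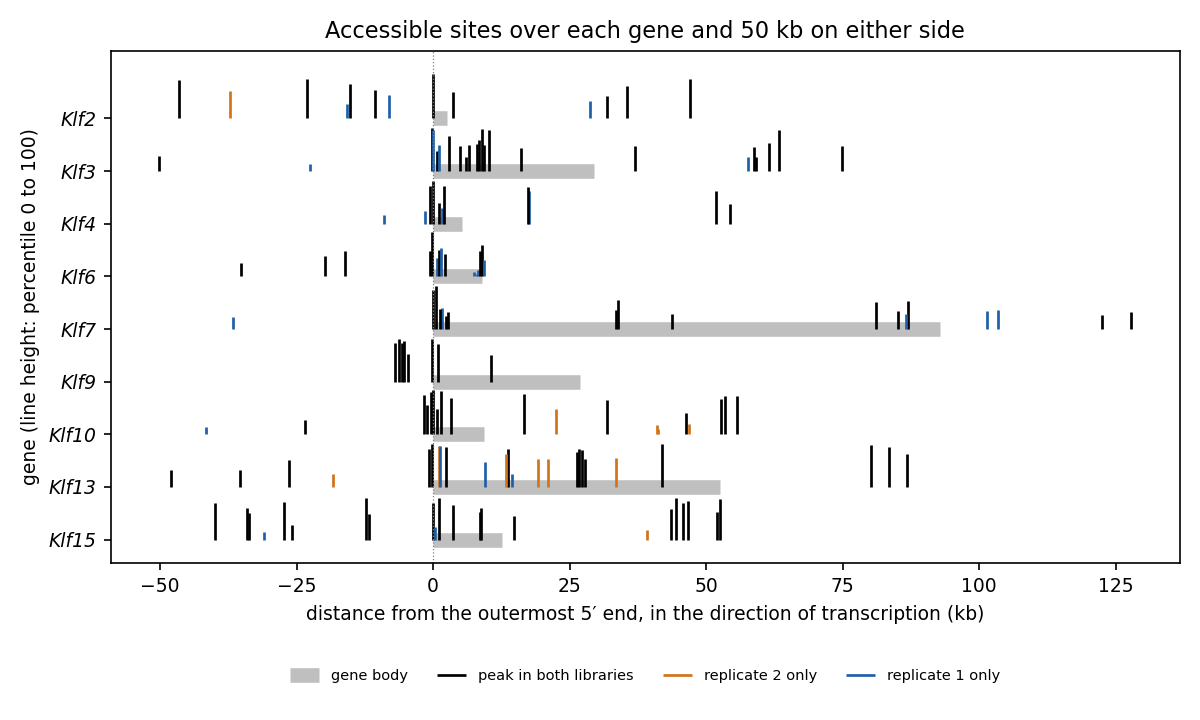
Position of every peak region relative to the outermost 5′ end (kb, in the direction of transcription), with the gene body in grey; the height of a line is the percentile, averaged where both libraries had the peak (black), or that of the 1 library that had it (blue or orange). Tall lines cluster at the 5′ end and upstream of Klf9. Further tall lines include those upstream of Klf15, far downstream of Klf15, Klf3, Klf10 and Klf13, and on both sides of Klf2. The Klf13 site on the 1 kb limit, which had a peak in both libraries, is drawn as separate blue and orange lines.

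By the mean of both libraries, the highest-ranked distal site lay upstream of Klf9. It belongs to a cluster of 5 shared sites between -6995 and -4628 bp from the Klf9 start, of which the strongest, chr19:23134861-23135100, stood at 95.36 in replicate 1 and 96.11 in replicate 2, level with the Klf9 promoter itself. This site lies 81 bp inside the noncoding gene 2410080I02Rik, and 4 of the 5 lie within 1 kb of its 5′ end, so they cannot be assigned to Klf9 alone. In the Klf13 window the strongest, chr7:63896901-63897220, stood at 94.47 and 96.24 in an intron of Klf13 that also holds the noncoding gene Gm27252. It lies 528 bp from the 5′ end of Gm27252, so it too cannot be assigned to 1 gene. In the Klf15 window it was chr6:90450281-90450460, at -12205 bp from the outermost 5′ end, at 97.29 in replicate 1 and 90.75 in replicate 2. The sequences of these 3 sites are shown as the strongest distal sites of the 9 genes.
Klf9 distal site, chr19:23134955-23135100, plus strand: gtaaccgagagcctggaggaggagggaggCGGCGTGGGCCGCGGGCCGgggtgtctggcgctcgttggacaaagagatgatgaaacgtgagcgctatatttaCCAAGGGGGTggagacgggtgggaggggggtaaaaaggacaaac
Klf13 distal site, chr7:63896901-63897200, minus strand: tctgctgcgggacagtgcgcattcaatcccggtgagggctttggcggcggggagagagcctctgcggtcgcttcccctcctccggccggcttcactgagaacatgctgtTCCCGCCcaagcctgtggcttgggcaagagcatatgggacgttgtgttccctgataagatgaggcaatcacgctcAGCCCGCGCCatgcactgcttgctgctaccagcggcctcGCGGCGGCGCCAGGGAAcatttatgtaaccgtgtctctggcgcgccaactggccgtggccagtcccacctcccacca
Klf15 distal site, chr6:90450281-90450460, plus strand: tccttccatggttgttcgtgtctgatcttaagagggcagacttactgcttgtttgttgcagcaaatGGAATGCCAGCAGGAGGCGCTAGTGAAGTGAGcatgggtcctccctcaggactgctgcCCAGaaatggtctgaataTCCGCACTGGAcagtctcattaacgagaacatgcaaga
The Klf9 stretch is 146 bp of the 240 bp of its site, with 2 of the 4 shared footprints, and holds 2 CACCC boxes. A GC box in the 200 bp around the centre of this site lies outside the printed part. The Klf13 stretch holds a GC box and, overlapping it, a glucocorticoid receptor palindrome at chr7:63897089-63897103. A shared footprint covers most but not all of the GC box and 3 bases of the palindrome. The Klf15 stretch holds none of the motifs searched.

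The strongest shared distal sites of the remaining genes ranked lower. They stood at 94.26 and 88.26 for Klf3 (in its own intron, chr5:64813581-64813740) and 91.72 and 87.58 for Klf10 (between genes, chr15:38283961-38284140). That of Klf2 stood at 87.89 and 88.36 (between genes, chr8:72295681-72296060, at -23162 bp) and held a further MEF2 consensus, 2 bases of it in a shared footprint. That of Klf4 lay in its own coding exon at 81.62 and 85.26 (chr4:55530281-55530540). Klf6 and Klf7, whose promoters were among the strongest, had the lowest such sites of the 9 genes. They stood at 75.43 and 65.18 for Klf6 (chr13:5870381-5870580) and at 66.78 and 64.21 for Klf7 (chr1:64088361-64088560). The rank of the strongest distal site was not computed over all genes. By shared sites per 100 kb, Klf6 was at or above 56.7% and Klf7 at or above 62.1% of all genes. Klf15 had 4 shared sites in the gene Aldh1l1, downstream of it, with a mean percentile above 80, among them those at 94.90 and 89.45 and at 95.40 and 86.69.

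Among distal peaks away from every gene 5′ end, the CACCC box was present in 28 of 94 windows of the 9 genes in replicate 1 (29.8%) and 29 of 82 in replicate 2 (35.4%), against 19.42% and 19.69% of all such peaks. The GC box was present in 11 (11.7%) and 7 (8.5%), against 9.77% and 9.99%, and the CCAAT box in 16 (17.0%) and 14 (17.1%), against 22.07% and 22.16%. The windows lie around only 9 genes and are not independent, and these shares were not tested. The glucocorticoid receptor palindrome was present in 1 of 94 (1.1%) and 1 of 82 (1.2%), against 273 of 62004 such windows (0.44%) in replicate 1 and 278 of 49911 (0.56%) in replicate 2. This match lay at chr6:90471389-90471403 in an intron of Klf15, in a peak at 70.31 and 71.04, where no base of it lay in a shared footprint. The Klf13 site, within 1 kb of another gene's 5′ end, is not among these windows. No other peak region of the 9 genes, searched over its whole length, held the palindrome.

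The rest of the family and its partners were described by the same rule. Of the 8 other KLF genes 6 were open in each library, and Klf1, the erythroid member, and Klf17, an embryonic member, were not. The highest-ranked promoter peak reached percentile 90 or above in 3 of the 8 in each library. Its median over the open ones was 81.1 in replicate 1 and 76.0 in replicate 2, below that of the 9 genes. Klf5 had its highest-ranked promoter peak at 92.23 and 93.05, near the level of Klf15, but 3 distal peaks in replicate 1 and 0 in replicate 2. Of the 9 SP genes 5 were open in each library, and Sp6, Sp7, Sp8 and Sp9 were not. The highest-ranked promoter peak reached percentile 90 or above in 4 of the 9 SP genes in each library. Its median over the open SP genes was 97.0 in replicate 1 and 99.4 in replicate 2, above that of the 9 KLF genes. High promoter ranks were thus not particular to the 9 KLF genes. All 10 co-regulator genes were open in both libraries, from Sin3a, the scaffold bound by the Klf9 branch (98.07 and 98.91), down to Kat2b, an acetyltransferase (74.11 and 73.41). All 14 genes of the list of flow signalling, which holds both the route to Klf2 and Klf4 and known targets of these factors, were open, from Pdcd10, a member of the cerebral cavernous malformation complex (99.54 and 99.56), down to Nos3, the endothelial nitric oxide synthase and a known target (56.45 and 63.60). These shares stand beside the 63.6% of all genes open in both libraries, and the lists were not tested against it.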

How the data were processed

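DNase-seq peaks and footprints of 2 lung libraries were analysed. Per the listings deposited with the files, the authors aligned to mm10 and called peaks and footprints for each library separately; which aligner and callers, versions and cut-offs they used is not given in the sources used here. Each peak in the deposited lists has a signal value whose scaling by the authors is not stated, so it was used only for ranks within its own list. The authors' files of false discovery rates list runs of bases at a rate of 0.05 or below, and their deposited footprint files hold the same p-value, 0.01, in every line. Each library has a larger and a smaller peak list, and the smaller was used. No read counts are given, so no interval for depth was computed.

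The genome was GRCm38, with its GENCODE annotation: the first bases of 36 of 36 transcripts of the 9 genes matched the genome, and 0 of 172189 peaks lay beyond a chromosome end. Peaks within 1 kb of any transcript 5′ end of a gene were its promoter peaks, and other peaks from 50 kb before to 50 kb after it its distal peaks. A region is the union of overlapping peaks of both libraries, and it is shared if both have a peak there. Footprints were counted where they lay whole inside a peak. A site that straddles the 1 kb limit can be called promoter in one library and distal in the other, as for Klf13 (chr7:63937601-63937820 in replicate 1 and chr7:63937661-63937940 in replicate 2). Such a site is not counted as shared, although both libraries have a peak there. Motifs were searched on both strands. Reads of hybrid mice were placed on the C57BL/6J reference; an effect of CAST/EiJ alleles on mapping was not tested.

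The 9 genes and the gene and motif lists were chosen with earlier results of these data known. Named were all 9 genes, the strongest shared distal site of each, Klf5 and the KLF and SP genes that were not open, and the highest and lowest of the co-regulator and flow signalling lists; sequences were taken by the highest mean percentile, for 6 promoters and 3 distal sites. With 1 group no test was made. The counting was tested on simulated peaks. Alternatives for the window, flank, peak list, peak choice, overlap and each library are in the closing section. Computations used Python 3.11.15, numpy 2.4.6, pandas 2.3.3, pysam 0.24.0 and matplotlib 3.10.9.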

Additional observations from a re-analysis of the deposited data

Results flagged for a closer look

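The files hold signal that the comparisons above did not use. In the windows of the 9 genes, the larger peak list had 58 peaks in replicate 1 and 38 in replicate 2 that overlap no peak of the smaller list. Footprints outside every peak of the smaller list numbered 105 in replicate 1 and 59 in replicate 2. These counts were not set against the same counts over all genes, and the files include no control library.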

How the results depend on the processing

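All 9 genes were open in both libraries under each of the 9 alternatives tried: windows of 500 and 2500 bp, the outermost 5′ end alone, protein-coding transcripts alone, the larger peak list, the higher-scoring 50% of peaks, the peak centre in the window, and either library alone. The share of all genes open in both libraries was 61.9% at 500 bp and 66.6% at 2500 bp. The median percentile of the highest-ranked promoter peak, 97.05 as the mean of both libraries, was 91.46 among promoter peaks only, 98.07 in the larger list and 93.99 for the peak nearest to a 5′ end, and ran from 96.34 to 97.76 with 1 library left out. By the nearest peak the genes' medians were 95.36 in replicate 1 and 92.61 in replicate 2, against 86.38 and 87.30 over all open genes. The sum of shared distal peaks, 83, was 44 with flanks of 20 kb, 134 with 100 kb and 25 in gene bodies only, and a single library gave 93 or 104. Footprints in promoter peaks, 117.5 as the mean, stayed between 94 and 140. For single genes, where both libraries were kept, 7 of 18 percentiles moved by less than the spread between libraries and 7 of 27 distal counts stayed within 1.5 times; with 1 library left out, 16 of 18 distal counts did, all but those of Klf4 (7) and Klf6 (10) in replicate 1 alone. The nearest-peak choice lowered Klf4 to 67.83, Klf15 to 81.56 and Klf7 to 86.48. For Klf4 this is a mean over different sites: a peak inside the gene at 43.06 in replicate 1 and the main promoter peak at 92.61 in replicate 2. No paired analysis was possible because both libraries belong to 1 group. The unknown read depth and the number of libraries limit every value.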

Other observations

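In the promoters of Klf2, Klf6 and Klf7 the MEF2 consensus was preceded on its 5′ side by the letters TTATATA. This pair was chosen after the sequences were seen, so it is given as a count without a test. A MEF2 consensus with TTATATA within 30 bases was present in 8 of 13284 windows around the highest-ranked promoter peak (0.060%) in replicate 1, 3 of them those of Klf2, Klf6 and Klf7. In replicate 2 it was present in 5 of 12750 (0.039%), among them Klf2 and Klf7; the Klf6 window held it in replicate 1 only, since the centre of the peak differs between libraries. The other genes with the pair were Hexim1, Rpl23a and Tmem247 in both libraries and Dgki and Tecrl in replicate 1.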
